A study of Homo sapiens with 22 samples.

Results

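The primed state is a rare gene expression state of WM989 melanoma cells that are sensitive to targeted therapy as a population. WM989 is an established BRAF-mutant melanoma line, and the cells used here were a clonal derivative of it. Primed cells were compared between a plate treated with LY2109761, an inhibitor of the TGF-beta receptors TGFBR1 and TGFBR2 (TGFBRi), and an untreated plate (Control). The cells were profiled by droplet scRNA-seq, and a cell counts as primed when the authors' label says so, which they gave to all cells of clusters 4 and 10 of their own clustering. By this rule 648 of the 19346 cells in the TGFBRi and Control libraries were primed. Control r1 held 94 of them, Control r2 165, TGFBRi r1 118 and TGFBRi r2 271. The whole treatment experiment held 4077 primed cells among 40021 cells in 8 libraries, the others being treated with TGFB1 or with a PI3K inhibitor.

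In each of 2 parallel replicates, the barcoded cells of a single well were expanded and divided at random over the plates, so that a replicate shares its starting cells. The Control plate was untreated, and no vehicle is named for it. The replicates are named Mix and Primed in the sample labels but r1 and r2 in the cell labels, and the names could not be matched to each other. The cells of all groups came from cells barcoded with the same lineage library, and no group differed in genotype. The state labels were made from the same counts that are compared here, so any difference in how many cells are called primed depends on that clustering.

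TGF-beta ligands bind a pair of receptor kinases, TGFBR2 and TGFBR1, which phosphorylate SMAD2 and SMAD3. These join SMAD4 in the nucleus and induce targets, among them genes of the extracellular matrix and genes that feed back on the pathway, such as SMAD7, SKIL, PMEPA1 and SMURF2. In melanoma, TGF-beta is known as an inducer of mesenchymal-like, undifferentiated cell states, of which fibronectin is a common marker.

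The authors chose the primed clusters by known primed-state markers, so the levels of these markers describe the label and do not test it. In both Control libraries all 6 primed markers (NT5E, EGFR, NGFR, AXL, FN1 and SERPINE2) had a higher level in primed than in drug-susceptible cells, with a ratio between 3.87 (NT5E, r2) and 196 (NGFR, r1). All 6 markers of the drug-susceptible state (SOX10, MITF, MLANA, PMEL, TYRP1 and DCT) had a lower level, with a ratio between 0.0985 and 0.521, and TYRP1 was near 0 in both states. The summed primed cells of a library held between 1341778 and 3026603 UMIs, and the median primed cell held 12424 and 14535 UMIs in Control r1 and r2 and 12157 and 9815 in TGFBRi r1 and r2. The median percent of mitochondrial UMIs in primed cells lay between 7.56 and 8.38 in the 4 libraries. The 4 libraries shared 30 cell barcodes, none of them carried by a primed cell. Levels below are CPM, the UMIs of a gene scaled to the total of the summed primed cells of a library, and they compare libraries for 1 gene, not genes with each other.

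A small set of genes was lower in TGFBRi than in Control primed cells, among them 4 feedback genes of the TGF-beta pathway, 3 matrix genes and 5 interferon-stimulated genes. No interferon-stimulated gene was called within the cluster with the most primed cells, with library totals or with DESeq2. The calls among the feedback genes numbered 1, 2 and 1 in these settings. Of the matrix genes, MGP held no difference in r1 (-0.01). Of 10326 genes tested, 21 were lower (0.203%) and 2 were higher (0.0194%) in TGFBRi than in Control at an adjusted p under 0.05. PMEPA1 fell the most, and FN1 fell by 0.91 on the log2 scale. S100A2 and PEG10 were the 2 genes that rose. Of the 21 lower genes, 17 had both TGFBRi values below both Control values, as had 18% of all genes tested. The difference had the same sign in r1 and r2 for 22 of the 23 genes, the exception being IFIT2. Over all 10326 genes tested, 2656 were above 0 and 2775 below 0 in both replicates. The same libraries chose the 23 genes, so these counts are a description. Without Control r2, in a fit that also drops the replicate block, 8 of the 21 were still called.

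The calls differed in how many of up to 14 alternative settings (other scalings, filters, tools, cell subsets and left-out libraries) they held in. PMEPA1 held in all 14, FN1, RGS2 and SPP1 in 13, HTRA1 and IGFBP7 in 12 and ID3 in 11. PEG10 held in 10, S100A2 in 9, and SKIL and IFIT1 in 8. IFIT3 and PLXDC2 held in 7, IFIT2, MMP1 and MGP in 6, and IFIH1, ITGA2 and BST2 in 5. SMURF2 and CCL5 held in 4, RGS1 in 3 and PLXNC1 in 2. With 4 libraries and 1 residual degree of freedom, the test rested on a spread shared across genes, worth 29.0 prior degrees of freedom. At an unadjusted p under 0.05 there were 357 higher and 429 lower genes, and DESeq2 called 0 higher and 5 lower genes at the same adjusted threshold.

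**Figure D1:**
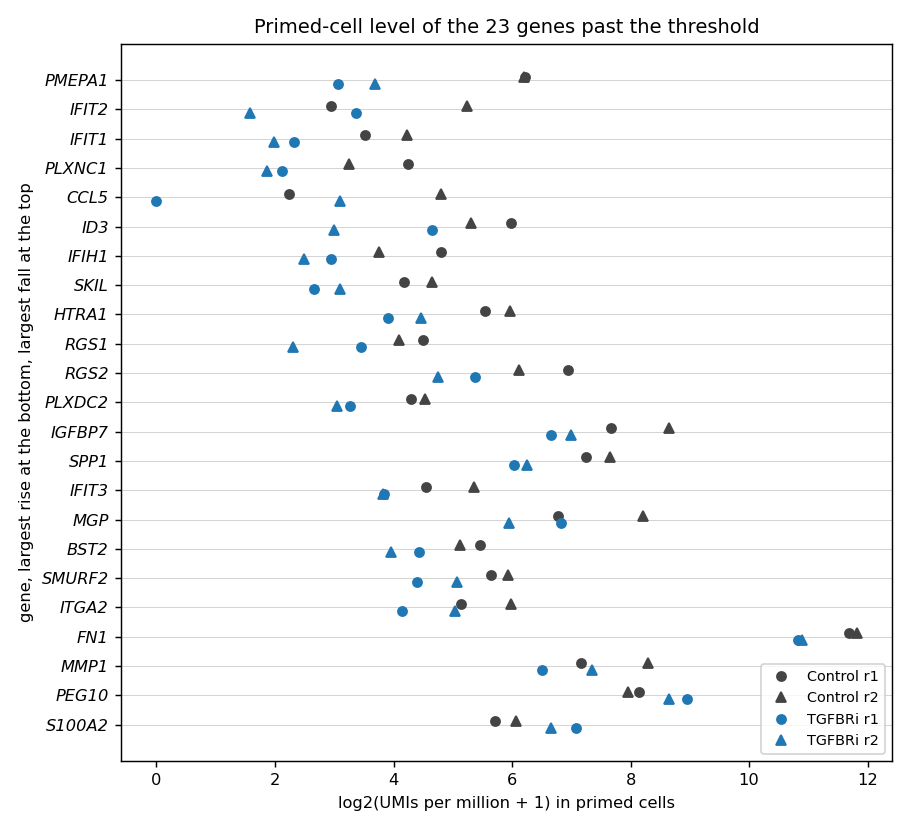
Level of the 23 genes past the threshold in primed cells, as log2(CPM + 1) on the horizontal axis, with 1 row a gene and 1 point a library (grey Control, blue TGFBRi, circles r1, triangles r2). PMEPA1 in the top row is at 73.8 and 72.4 CPM in Control against 7.33 and 11.9 CPM in TGFBRi, while the IFIT2 and MGP points of the groups overlap.

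Feedback genes of the pathway included the gene that fell the most. PMEPA1, a membrane protein that withdraws SMAD2 and SMAD3 from the receptor (chromosome 20, 57648392 to 57711536, hg38), was at 73.8 CPM in Control r1, 72.4 in Control r2, 7.33 in TGFBRi r1 and 11.9 in TGFBRi r2. The Control libraries were close to each other and far above both TGFBRi libraries, and the log2 fold change was -2.84 ± 0.24 (SE, adjusted p = 6.13e-09). It stayed past the threshold under all 14 alternative settings. The share of primed cells with a PMEPA1 UMI, with every cell thinned to 5000 UMIs, was 27.4% and 24.9% in Control and 3.46% and 4.28% in TGFBRi, against 0.372% to 2.13% of drug-susceptible cells, the state where the gene is scarce. Unthinned, these shares were 45.7% and 45.5% in Control and 8.47% and 8.86% in TGFBRi, against 1.13% to 7.94% of drug-susceptible cells, whose median depth was higher, between 13128.5 and 21929 UMIs.

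SKIL, a SMAD corepressor (chromosome 3, 170357342 to 170396835), was at 17.1 and 24.1 CPM in Control and at 5.33 and 7.60 in TGFBRi. SMURF2, a ubiquitin ligase that acts on the receptors and on SMADs (chromosome 17, 64542282 to 64662307), was at 49.2 and 60.4 CPM in Control and at 19.998 and 32.7 in TGFBRi. Neither gene's groups overlapped, and the log2 fold changes were -1.66 ± 0.32 for SKIL (adjusted p = 0.0116) and -1.03 ± 0.21 for SMURF2 (adjusted p = 0.0161). SKIL lost its call in 6 of 14 alternatives and SMURF2 in 10 of 14. Both lost it without Control r2, with library totals, in G1 cells, within cluster 10 alone and with DESeq2. Over the alternatives SKIL lay between -2.03 and -1.35 and SMURF2 between -1.52 and -0.74. ID3, an inhibitor of basic helix-loop-helix factors that BMP and TGF-beta signals control (chromosome 1, 23557926 to 23559501), was at 61.9 and 38.6 CPM in Control and at 24.0 and 6.94 in TGFBRi. It fell by 1.89 on the log2 scale (SE 0.25, adjusted p = 5.95e-05), by 1.05 without TGFBRi r2 and by 2.76 without TGFBRi r1, and DESeq2 did not call it (adjusted p = 0.0795). The ID3 value of Control r1 rested in part on the few cells of cluster 4, 5 of its 94 primed cells, which held 59.0% of its ID3 UMIs. Within cluster 10 alone the difference was -1.42 and did not pass (adjusted p = 0.281).

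Of the 27 SMADs and feedback genes in the list used, 22 were tested, 4 were lower and none was higher, with a median log2 fold change of -0.34 beside a median of -0.0014 over all genes tested. The members that moved are those just described, and within cluster 10 alone PMEPA1 was the 1 member still called, with SKIL at -1.56 and SMURF2 at -1.03, close to their values in all primed cells. SMAD7, the inhibitory SMAD, was at 20.9 and 27.0 CPM in Control and at 13.3 and 14.9 in TGFBRi, and did not pass the test (-0.78 ± 0.26, adjusted p = 0.436). ID2 was at -1.43 ± 0.34 and missed the threshold (adjusted p = 0.066), as did KLF10 (-0.80), BHLHE40 (-0.77) and TGIF1 (-0.75), while SMAD2, SMAD3 and SMAD4 lay between -0.25 and 0.13.

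Ligands and receptors did not pass the test. TGFB1 was at 48.4 and 50.3 CPM in Control and at 31.3 and 32.7 in TGFBRi (-0.63 ± 0.20, adjusted p = 0.382). TGFBR1 was at 50.7 and 48.3 CPM in Control and at 34.7 and 37.0 in TGFBRi (-0.45 ± 0.20, adjusted p = 0.583). The groups did not overlap for either gene, unlike TGFBR2, at 26.8 and 35.8 CPM in Control and 34.0 and 31.4 in TGFBRi (0.01 ± 0.22). TGFB2 and TGFB3 were below the filter on low counts. Over the 32 ligands, receptors and latency proteins of the list, 23 were tested and none was called, with a median of -0.20.

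Promoters were searched for the SMAD box in a longer form, CAGACA or TGTCTG on the other strand, within 250 bases before and 50 after the start sites of RefSeq on GRCh38.p14. Of the 21 lower genes 16 had a promoter in the table, and 5 of these (IFIT3, PMEPA1, RGS1, SMURF2 and SPP1) held a match in at least 1 promoter, or 31.3%, as did 16.2% of the 8194 tested genes with a promoter. The palindrome GTCTAGAC was in none of the 16 and in 0.195% of the tested genes, and GGCGCC, an element bound by BMP SMADs, was in 4 of the 16 (25%) and in 37.9% of the tested genes. The AP-1 element TGACTCA was in none of the 16 and in 4.53% of the tested genes. The stretches around the matches of the gene that fell the most and of the secreted gene SPP1 are given to show what was matched, with the match in capitals.
PMEPA1 (GRCh38.p14, chr20:57710662-57710717, minus strand): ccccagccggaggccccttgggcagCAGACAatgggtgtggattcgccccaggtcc
SPP1 (GRCh38.p14, chr4:87975645-87975700, plus strand): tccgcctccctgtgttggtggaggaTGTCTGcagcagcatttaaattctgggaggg

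The genes that fell also included several whose products are matrix proteins or are secreted. FN1, which encodes fibronectin, a matrix glycoprotein and primed-state marker (chromosome 2, 215360440 to 215436073), was at 3310 and 3634 CPM in Control and at 1822 and 1911 in TGFBRi. The groups did not overlap and the replicates of a group were close, and the log2 fold change was -0.91 ± 0.16 (adjusted p = 0.00517). FN1 was still detected in nearly all primed cells, in 91.4% and 91.1% of Control and 83.2% and 92.5% of TGFBRi cells at 5000 UMIs, against 11.4% to 14.9% of drug-susceptible cells.

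SPP1, the secreted glycoprotein osteopontin (chromosome 4, 87975667 to 87983532), was at 151 and 200 CPM in Control and at 64.7 and 75.7 in TGFBRi (-1.34 ± 0.16, adjusted p = 5.45e-06). IGFBP7, a secreted binding protein of insulin-like growth factors (chromosome 4, 57030773 to 57110385), was at 203 and 399 CPM in Control and at 100 and 126 in TGFBRi (-1.39 ± 0.15, adjusted p = 2.47e-06). HTRA1, a secreted serine protease (chromosome 10, 122458551 to 122514907), was at 45.5 and 61.2 CPM in Control and at 14.0 and 21.1 in TGFBRi (-1.58 ± 0.22, adjusted p = 8.78e-05). No group overlapped for these 3 genes, and all were detected in a smaller share of cells. IGFBP7 did not pass without Control r2 (-0.85, adjusted p = 0.0866). At 5000 UMIs the share went from 39.3% and 39.7% to 22.6% and 25.4% for SPP1. For HTRA1 it went from 21.1% and 22.1% to 6.91% and 9.94%. In TGFBRi this was below the share of drug-susceptible cells with a UMI in r1 (9.67%) and near it in r2 (9.26%).

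MMP1, the interstitial collagenase, was at 142 and 311 CPM in Control and at 90.0 and 162 in TGFBRi (-0.83 ± 0.15, adjusted p = 0.00517). In both groups r2 was above r1, and the groups overlapped although TGFBRi was below Control within each replicate. The MMP1 call was lost without the replicate block (adjusted p = 0.285), and without Control r2 the value was -0.16 (adjusted p = 0.948). ITGA2, the alpha-2 integrin subunit that binds collagen, was at 34.3 and 62.0 CPM in Control and at 16.7 and 31.7 in TGFBRi (-0.98 ± 0.21, adjusted p = 0.0306), and at -0.43 without Control r2 (adjusted p = 0.885). MGP, matrix Gla protein, an inhibitor of calcification, was at 108 and 296 CPM in Control and at 112 and 60.5 in TGFBRi, so r1 held no difference (-0.01) and the call came from r2 (-2.24). Single cells held much of the MGP signal, with 44.8% of the MGP UMIs of Control r1 and 30.9% of those of Control r2 in 1 cell each. The share of cells with an MGP UMI at 5000 UMIs was 8.97% and 10.8% in Control and 12.1% and 10.5% in TGFBRi, with overlapping groups, higher in TGFBRi in r1 and slightly lower in r2.

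Of 50 matrix and collagen genes 30 were tested, and FN1, MGP and SPP1 were lower, with a median of -0.17. COL1A1 (-0.84 ± 0.23, adjusted p = 0.183), COL6A3 (-1.15 ± 0.42, adjusted p = 0.503) and THBS1 (-0.59 ± 0.21, adjusted p = 0.475) did not pass, and COL6A1 was at 0.06. Among 25 plasminogen activators, serpins, MMPs and TIMPs, 17 were tested and MMP1 alone was lower, with a median of -0.20. MMP2, a gelatinase, narrowly missed the threshold (-0.75 ± 0.17, adjusted p = 0.055). Of 39 TGF-beta transcriptional targets 27 were tested and only FN1 was called, with a median of -0.15. CCN2, a matricellular target of both TGF-beta and YAP, was higher in TGFBRi in both replicates, at 14.9 and 14.9 CPM in Control and 50.7 and 22.5 in TGFBRi. It did not pass (1.11 ± 0.27, adjusted p = 0.0746), and 40.8% of its UMIs in TGFBRi r1 were in 1 cell. The CCN2 value depended on the setting, at 0.62 without TGFBRi r1, 1.72 without TGFBRi r2, 0.29 in G1 cells and 1.48 with equal cell numbers.

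**Figure D2:**
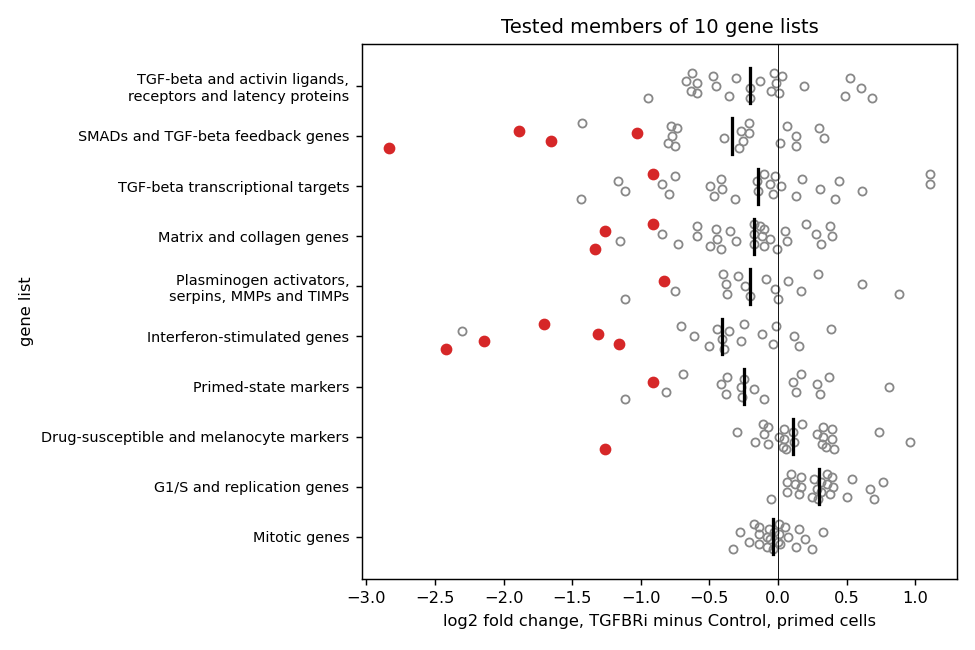
Log2 fold change of TGFBRi against Control in primed cells (horizontal axis) for the tested members of 10 gene lists (rows), with filled red points for members past the adjusted threshold, open points for the others and a black bar at each list's median. The medians run from -0.41 for the interferon-stimulated genes to 0.30 for the G1/S genes, where no member passed.

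RGS2 and RGS1 are regulators that speed the shut-off of G protein signals. RGS2 was at 122 and 68.8 CPM in Control and at 40.7 and 25.8 in TGFBRi (-1.51 ± 0.18, adjusted p = 7.29e-06). RGS1 was at 21.6 and 16.1 CPM in Control and at 10.00 and 3.96 in TGFBRi (-1.58 ± 0.34, adjusted p = 0.0347). The groups overlapped for neither gene, which lie near each other on chromosome 1 (192575763 to 192580024 and 192809039 to 192812275), and RGS2 lost its call only in the fit without a filter on low counts. RGS1 lost it in 11 of 14 alternatives, with a value of -0.91 without TGFBRi r2 (adjusted p = 0.575). PLXNC1, a semaphorin receptor, fell from 17.9 and 8.45 to 3.33 and 2.64 CPM (adjusted p = 0.0468), and PLXDC2, a membrane protein with a plexin domain, from 18.6 and 22.1 to 8.67 and 7.27 CPM (adjusted p = 0.036). These are counts of at most 55 UMIs a library and PLXNC1 lost its call in 11 of 13 alternatives that gave it a value, PLXDC2 in 7 of 14.

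Interferon-stimulated genes were the list with the lowest median in the main fit. In other settings the SMADs and feedback genes were lower. Their median was -0.35 against -0.26 in cluster 10 alone, and -0.50 against -0.36 without Control r2. Of 28 interferon-stimulated genes 21 were tested, 5 were lower (IFIT1, IFIT2, IFIT3, IFIH1 and BST2) and none was higher. The median was -0.41 and 18 of 21 were below 0, beside 5188 of all 10326 genes tested. The count of 5 was 1 with RLE scaling, 0 with library totals and 0 with DESeq2, 2 without Control r2 and 1 without TGFBRi r2. The IFIT proteins bind foreign RNA, IFIH1 is a sensor of double-stranded RNA and BST2 is a membrane tether of budding virions. IFIT1 was at 10.4 and 17.7 CPM in Control and at 4.0 and 2.97 in TGFBRi (-2.15 ± 0.42, adjusted p = 0.0135). IFIT3 was at 22.4 and 40.2 CPM in Control and at 13.3 and 13.2 in TGFBRi (-1.31 ± 0.26, adjusted p = 0.0161). IFIH1 was at 26.8 and 12.5 CPM in Control and at 6.67 and 4.63 in TGFBRi (-1.71 ± 0.35, adjusted p = 0.0199), without overlap, although 69.4% of its UMIs in Control r1 were in 1 cell. For IFIT2 the replicates went opposite ways, at 6.71 and 36.6 CPM in Control and at 9.33 and 1.98 in TGFBRi, and its call (-2.42 ± 0.48, adjusted p = 0.016) came from r2.

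These signals sat in few Control cells. Summed over the 5 genes, the 5 highest cells held 57.1% of the UMIs of Control r1 and 61.7% of those of Control r2, but 32.1% and 15.9% in TGFBRi r1 and r2. Cells with 10 or more of these UMIs numbered 2 of 94 and 4 of 165 in Control and 0 of 118 and 0 of 271 in TGFBRi, where a count of 0 allows up to 2.54% and 1.11%. Such cells also occurred in the drug-susceptible state, 19 of 4058 and 23 of 3527 in Control and 9 of 5111 and 37 of 6002 in TGFBRi. The primed cells of cluster 4, 5 in Control r1, 6 in Control r2 and none in TGFBRi, held 7.42% and 3.83% of all primed UMIs but 33.3% and 48.3% of the UMIs of the 5 genes together. By gene this was 71.4% and 75.0% for IFIT1, 55.6% and 79.1% for IFIT2, 60% and 54.0% for IFIT3, 2.78% and 25.8% for IFIH1 and 25.9% and 2.38% for BST2. In cluster 10 alone, IFIT3 was at -0.23 (adjusted p = 0.913) and IFIT2 at -0.46 (adjusted p = 0.911), while IFIH1 was at -1.57 and BST2 at -1.03, close to their values in all primed cells, and no interferon-stimulated gene was called. IFIT1 was below the filter on low counts there.

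BST2 was spread over more cells. It was at 43.2 and 33.8 CPM in Control and at 20.7 and 14.5 in TGFBRi (-1.16 ± 0.24, adjusted p = 0.0194), with the highest cell holding at most 16.1% of the UMIs in any library. At 5000 UMIs it was detected in 17.5% and 13.4% of Control and 9.67% and 7.57% of TGFBRi primed cells. IFIT3, by contrast, was detected in 4.05% and 7.16% of Control and 7.46% and 5.52% of TGFBRi primed cells, with overlapping groups, a higher share in TGFBRi in r1 and a lower one in r2, beside 3.33% to 4.52% of drug-susceptible cells. ISG15 (-0.12) and IFITM3 (0.12), which also respond to interferon, lay near 0. CCL5, a chemokine outside the list, fell by 1.91 on the log2 scale (adjusted p = 0.0162), from 3.73 and 27.0 to 0 and 7.60 CPM, where 0 UMIs allow up to 2.0 CPM, but 80.0% and 82.1% of its Control UMIs were in 1 cell of each library. Without Control r2 the value turned to 0.33 (adjusted p = 0.979).

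The promoters of the interferon-stimulated genes were searched for the interferon response element in the form GAAA, any 2 bases, GAAA, which reads TTTC, any 2 bases, TTTC on the other strand. It was in 5 of the 16 lower genes with a promoter (31.3%), namely BST2, IFIH1, IFIT1, IFIT3 and PLXNC1, and in 3.88% of the 8194 tested genes. The stretches before the start sites are shown for the called interferon-stimulated genes that held a match, with the matches in capitals, which overlap in BST2 and in IFIH1.
BST2 (GRCh38.p14, chr19:17405720-17405785, minus strand): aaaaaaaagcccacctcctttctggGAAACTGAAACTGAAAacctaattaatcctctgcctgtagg
IFIH1 (GRCh38.p14, chr2:162318685-162318868, minus strand): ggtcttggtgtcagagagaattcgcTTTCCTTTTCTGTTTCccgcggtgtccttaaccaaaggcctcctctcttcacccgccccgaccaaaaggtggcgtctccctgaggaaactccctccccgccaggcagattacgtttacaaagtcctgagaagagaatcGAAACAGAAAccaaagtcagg
IFIT1 (GRCh38.p14, chr10:89392482-89392554, plus strand): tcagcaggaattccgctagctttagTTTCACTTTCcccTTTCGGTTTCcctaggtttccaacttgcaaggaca
IFIT3, the upstream start site (GRCh38.p14, chr10:89327816-89327909, plus strand): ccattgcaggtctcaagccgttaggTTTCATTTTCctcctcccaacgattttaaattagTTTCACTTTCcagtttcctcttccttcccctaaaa

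**Figure D3:**
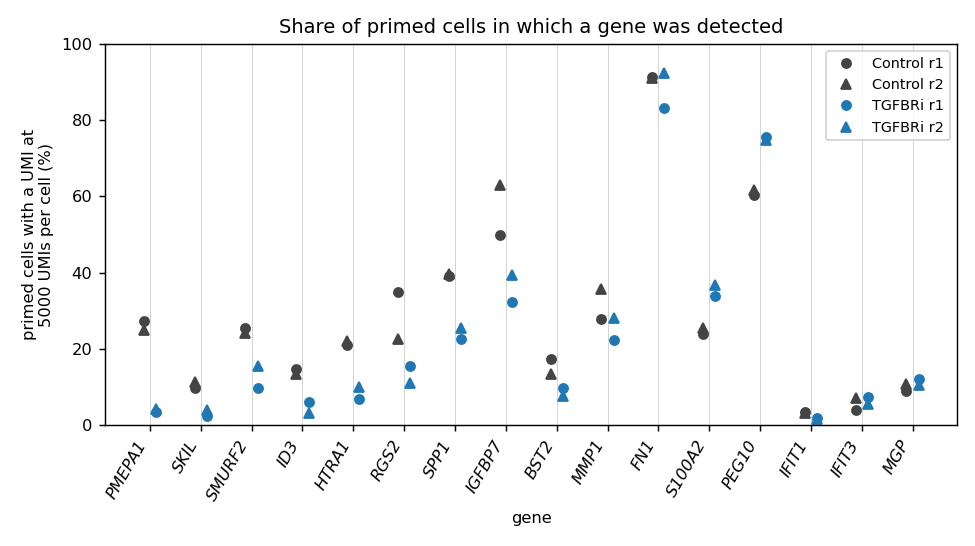
Percent of primed cells with at least 1 UMI of a gene (vertical axis) when every cell is thinned to 5000 UMIs, with 1 point a library (grey Control, blue TGFBRi, circles r1, triangles r2). PMEPA1 goes from 27.4% and 24.9% to 3.46% and 4.28%, while the IFIT3 and MGP points of the groups overlap.

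The 2 genes that rose did so in both replicates, and PEG10 also rose in drug-susceptible cells (0.40 on the log2 scale). S100A2, a calcium-binding protein (chromosome 1, 153561108 to 153567890), was at 51.4 and 66.0 CPM in Control and at 135 and 99.5 in TGFBRi (0.93 ± 0.18, adjusted p = 0.0116). PEG10, an imprinted gene derived from a retrotransposon (chromosome 7, 94656325 to 94669695), was at 280 and 246 CPM in Control and at 493 and 399 in TGFBRi (0.74 ± 0.14, adjusted p = 0.00898). Neither gene's groups overlapped. At 5000 UMIs, S100A2 was detected in 24.0% and 25.4% of Control and 33.9% and 36.8% of TGFBRi primed cells, and PEG10 in 60.5% and 61.6% against 75.7% and 74.9%. In TGFBRi r1 1 cell held 21.3% of the S100A2 UMIs. S100A2 lost its call in 5 of 14 alternatives, among them without Control r1 and within cluster 10 alone (adjusted p = 0.0945). PEG10 lost it in 4 of 14, among them without Control r2, and both lost it with library totals and with DESeq2. Over the alternatives S100A2 lay between 0.76 and 1.26 and PEG10 between 0.63 and 0.86. The next genes in this direction did not pass, among them POLR3K (0.74, adjusted p = 0.066), SNRNP25 (0.68, adjusted p = 0.066), DCT (0.74, adjusted p = 0.0794) and IL1B (1.11, adjusted p = 0.107). DCT was at 0.45 without Control r2 and 0.98 without Control r1. Among G1 cells it was at 1.53 and passed (adjusted p = 3.02e-06 by edgeR).

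Markers that define the primed state, apart from FN1, did not pass the test. Cells were labelled after treatment, in clusters chosen by such markers, so a cell that lost them could leave the set. These values therefore cannot show whether the inhibitor changes the markers. NT5E, an ecto-nucleotidase and surface marker of primed cells, was at 90.9 and 109 CPM in Control and at 76.0 and 93.5 in TGFBRi (-0.25 ± 0.16, adjusted p = 0.81). NGFR was at 79.0 and 118 CPM in Control and at 85.3 and 160 in TGFBRi (0.30 ± 0.16, adjusted p = 0.7), EGFR at 0.13 ± 0.34 and AXL at -0.38 ± 0.25. AXL was at -0.66 without TGFBRi r2 and -0.053 without Control r2. Of 21 primed-state markers 19 were tested and FN1 alone was called, with a median of -0.25. For melanocyte and drug-susceptible markers, 25 of 29 were tested and MGP alone was called, with a median of 0.11. The paper describes MGP as a gene of cells in an intermediate state between drug-susceptible and primed. In Control it was higher in primed cells (108 and 296 CPM) than in drug-susceptible cells (8.90 and 11.4). However, 1 cell each held 44.8% and 30.9% of these primed UMIs in r1 and r2. In untreated cells of the study's first experiment MGP was lower in primed (2.24 and 0.692 CPM) than in drug-susceptible cells (21.9 and 17.0). The MGP call came from r2, with no difference in r1 (-0.01). SOX10 (0.11 ± 0.17), MITF (0.03 ± 0.15) and MLANA (0.06 ± 0.14) were not past the test, and each changes sign under 1 or more alternative settings. The authors' primed score, a rank-based score per cell, had means of 0.452 and 0.460 in Control and 0.436 and 0.443 in TGFBRi, with an SD across the cells of a library between 0.0323 and 0.0452.

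No difference between the groups was detected in the share of cells labelled primed. It was 2.26% (95% Clopper-Pearson interval 1.83 to 2.76) in Control r1 and 4.47% (3.83 to 5.19) in Control r2, against 2.26% (1.87 to 2.70) in TGFBRi r1 and 4.32% (3.83 to 4.85) in TGFBRi r2. The difference of the means, -0.0782 percentage points, was smaller than the gap between the replicates (exact two-sided permutation p = 0.667, where 2 libraries against 2 allow no less than 0.333, and 2 replicate pairs no less than 0.5). Intervals cover counting error only.

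Genes of the G1/S transition lay on the higher side in TGFBRi without a call. Of 25 such genes 24 were tested and 0 were called by edgeR in either direction. At an unadjusted p under 0.05 by edgeR, 7 were higher, beside 357 of all 10326 genes tested. Estimates were above 0 for 23 of the 24, beside 5138 of the 10326, with a list median of 0.30. The median was larger in r1 (0.58) than in r2 (0.12). GINS2 (0.70 ± 0.20, adjusted p = 0.222), MCM2 (0.67 ± 0.26, adjusted p = 0.543) and TYMS (0.54 ± 0.21, adjusted p = 0.542), which serve DNA replication, are examples. DESeq2 also called 0 of these genes. By the authors' phase calls, 14.9% (8.39 to 23.7) of primed cells in Control r1 and 15.8% (10.6 to 22.2) in Control r2 were in S phase, and 30.5% (22.4 to 39.7) and 20.7% (16 to 26.0) in TGFBRi r1 and r2. The groups did not overlap, and the exact permutation p over the 4 libraries was 0.333, the smallest they allow. Permuted within the 2 replicate pairs, no p below 0.5 is possible. Among G1 cells alone the median of these genes was 0.15, with 15 of 20 tested genes above 0. Mitotic genes had a median of -0.03, with no call among 24. The sign of their median depended on the setting. It was 0.21 without the cells of highest UMI totals (19 of 24 above 0), 0.13 among G1 cells and -0.12 without TGFBRi r1. The drug-susceptible cells of the same libraries had a median of -0.0045 over the same G1/S genes.

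Other lists held few calls. None was called among 19 actin contractile genes, 11 EMT factors and cadherins, 23 YAP and AP-1 genes, 19 ERK output genes, 13 cyclins and CDK inhibitors or 26 stress genes tested, whose medians lay between -0.07 and 0.02. Control r1 stood apart in single stress genes. DDIT3, a factor of the unfolded protein response, was at 221 CPM in Control r1 against 50.7 in Control r2, 46.0 and 80.6 in TGFBRi, and its target TRIB3 at 97.6 against 43.9, 37.3 and 51.2. Of the 26 stress genes, 7 were highest in Control r1 (26.9%), as were 23.9% of all genes tested. ITGA2 was the only integrin of 14 to be called, IGFBP7 the only gene among 28 growth factors and receptors, and CCL5 the only gene among 12 cytokines. Within the last list, IL1B (1.11) and CXCL8 (1.51 ± 0.53, adjusted p = 0.475) were on the higher side, and PTGS2 (-1.62 ± 0.54, adjusted p = 0.436) on the lower side, none past the test.

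The effect was next compared with that in drug-susceptible cells of the same libraries, which asks whether the inhibitor acts on the same genes in both states. In the drug-susceptible state, with far more cells, 204 of 17368 genes tested were higher (1.17%) and 276 lower (1.59%). Of the 21 genes lower in primed cells, 6 were also lower in drug-susceptible cells (PMEPA1, SKIL, ID3, FN1, RGS1 and IFIT2) and none was higher. In a test of the difference between the states, 43 of 17290 genes were more negative in primed cells (0.249%) and 18 more positive (0.104%). These included 13 and 1 of the 21. The primed sums that chose the 21 genes also enter this test, so the counts among the 21 are a description. PMEPA1 and SKIL fell in both states by amounts whose difference did not pass. PMEPA1 went from 3.58 and 4.45 to 0.728 and 0.960 CPM in drug-susceptible cells (-2.23 ± 0.16, against -2.84 in primed cells, difference -0.64 ± 0.35, adjusted p = 0.8). For SKIL the difference was 0.12 ± 0.41. RGS1 (-0.93 ± 0.13) and IFIT2 (-0.86 ± 0.12) fell in drug-susceptible cells too, with differences that did not pass (adjusted p = 0.885 and 0.104 by edgeR). FN1 fell less there (-0.33 ± 0.09), with a difference of -0.56 ± 0.12 (adjusted p = 0.00152 by edgeR).

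The secreted genes HTRA1, SPP1 and IGFBP7 and the regulators RGS2 and SMURF2 fell more in primed cells. HTRA1 was at 20.8 and 19.7 CPM in Control and at 20.9 and 19.7 in TGFBRi drug-susceptible cells, a difference of -1.56 ± 0.22 between the states (adjusted p = 2.11e-09). SMURF2 was at 12.3 and 14.2 against 13.1 and 13.2 CPM there (difference -0.98 ± 0.21, adjusted p = 0.0021). SPP1 and RGS2, with differences of -1.47 ± 0.18 and -1.42 ± 0.24, were under 5 CPM in all drug-susceptible sums. Without Control r1 the RGS2 difference was -1.03. ID3, ID1 and COL9A3 showed the opposite pattern. ID3 went from 40.2 and 47.4 to 5.36 and 5.33 CPM in drug-susceptible cells (-3.02 ± 0.10), more than in primed cells (difference 1.17 ± 0.26, adjusted p = 0.00394), but the difference was 0.67 without Control r2 and 0.29 without TGFBRi r1 and passed in neither (adjusted p = 0.711 and 0.994). COL9A3, a collagen chain, went from 71.5 and 66.3 to 19.0 and 15.8 CPM there (-1.98 ± 0.09), against -0.67 ± 0.17 in primed cells, which did not pass. S100A2, at -0.20 ± 0.10 in drug-susceptible cells, also had a positive difference between the states (1.12 ± 0.18, adjusted p = 4.41e-07). PEG10 rose in drug-susceptible cells too, from 179 and 140 to 212 and 201 CPM (0.40 ± 0.09, adjusted p = 0.000755 by edgeR). Its difference between the states did not pass (0.35 ± 0.12, adjusted p = 0.274 by edgeR).

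**Figure D4:**
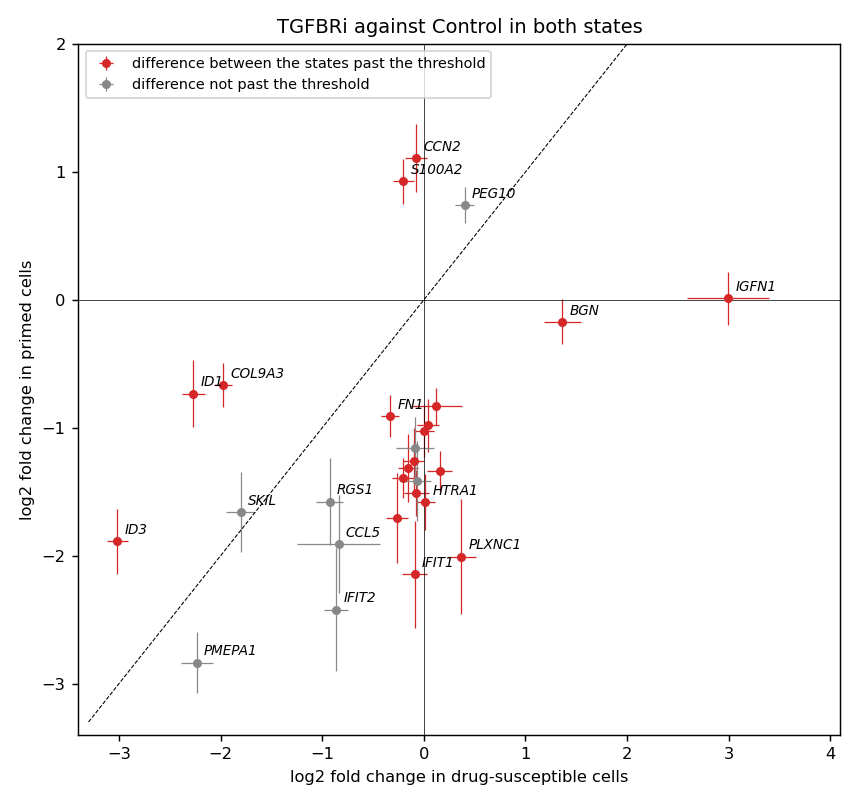
Log2 fold change of TGFBRi against Control in drug-susceptible cells (horizontal axis) and primed cells (vertical axis), with SE bars, for the 23 genes past the threshold in primed cells and the genes named for a difference between the states, red where that difference passed and grey where it did not. PMEPA1 and SKIL lie near the dashed line of equal effects, HTRA1 lies at 0.02 and -1.58, and ID3 at -3.02 and -1.89.

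What the lower genes share was looked for in untreated cells of the study's first experiment, which entered none of these fits. There 19 of the 21 (90.5%) were higher in primed than in drug-susceptible cells in both replicates, as were 44.9% of the 10083 tested genes found in that table. The exceptions were ID3 and MGP, the latter at 2.24 and 0.692 CPM in primed and 21.9 and 17.0 CPM in drug-susceptible cells. FN1, for instance, was at 3018 and 4558 CPM against 75.2 and 137, and MMP1 at 2174 and 2178 CPM against 24.2 and 23.9. The 21 genes were called on a fall from their Control primed level, and the wider set was not matched to them for level. The count of 19 is thus a description. Primed cells of the TGFB1-treated plates, which share their Control plates with this comparison and lie mostly in cluster 4, had 1115 and 1145 CPM of PMEPA1, 106 and 124 of SKIL, 383 and 330 of HTRA1 and 8474 and 8855 of FN1. Over the 21 lower genes, both TGFB1 values lay above both Control values for 9, as for 21% of all genes tested, below both for 3 (PLXDC2, PLXNC1 and MGP), as for 36.6%, and overlapped for 9, RGS2 and MMP1 among the last. The Control values chose the 21 genes, so these counts are a description.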

How the data were processed

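Cells were profiled with droplet 3' scRNA-seq. The authors aligned reads to hg38 and made count matrices with Cell Ranger (version not given in the sources used here), joined replicate runs without depth normalization, and removed cells with few genes, with very many genes (likely doublets) or with a high mitochondrial share. The deposited matrix holds raw UMI counts of 36601 genes. The deposited cell table gives the percent of mitochondrial UMIs per cell, which the authors computed and which reaches 24.991, the cluster, state and phase labels, and the authors' UCell score. No further cell filter and no doublet caller was used here. The members and lists were chosen with earlier results of these data known.

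UMI counts of primed cells were summed per condition and replicate and tested with edgeR 4.0.16 (R 4.3.3) by its quasi-likelihood test, after filterByExpr and TMM (factors 0.982 to 1.03), two-sided, with Benjamini-Hochberg adjustment over all genes tested and a threshold of 0.05. The replicate was a block because the plates of a replicate came from 1 well; the deviations of same-numbered primed sums correlated at 0.0465. The difference between states was fitted on 8 sums with library as a block. DESeq2 1.42.0 was an alternative. The edgeR p-values rest mostly on a spread shared across genes (29.0 prior degrees of freedom in the primed fit) and little on a gene's own 4 libraries. Named genes were the up to 15 largest changes each way past the threshold with the same sign in both replicates and a mean of at least 10 CPM (up to 10 next genes where fewer than 10 passed), the other called genes, pathway genes and markers from the lists, and the genes with the largest differences between states. Shares were compared after thinning cells to 5000 UMIs, which left out 12 primed cells. Intervals are Clopper-Pearson at 95% and cover counting error only. Gene positions are those of GENCODE 44, and promoters are RefSeq's on GRCh38.p14. The other steps used Python 3.11.15, namely pandas 2.3.3 for tables, numpy 2.4.6 for sums, scipy 1.17.1 for exact tests and matplotlib 3.10.9 for plots. Single values of some list members are not reported here.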

Additional observations from a re-analysis of the deposited data

Results flagged for a closer look

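For 10 genes the effect of TGFBRi differed between primed and drug-susceptible cells in a test of the difference itself, taking the 5 at each end among genes that passed and averaged 10 CPM or more across both states. Values are the log2 fold change in primed cells minus that in drug-susceptible cells. IGFN1, an immunoglobulin-like and fibronectin domain protein, was at -2.91 ± 0.47 (adjusted p = 1.86e-06 by edgeR). It was at 84.2 and 67.6 CPM in Control and 51.3 and 97.1 in TGFBRi primed cells, with overlapping groups, and at 0.0130 and 0.116 against 0.235 and 0.794 CPM in drug-susceptible cells. BGN, the proteoglycan biglycan, was at -1.50 ± 0.29 (adjusted p = 0.000324), with 58.9 and 71.6 against 63.3 and 55.8 CPM in primed cells and 0.873 and 0.695 against 2.2 and 1.8 CPM in drug-susceptible cells. The drug-susceptible values rest on few UMIs, 1 and 9 in Control and 19 and 67 in TGFBRi for IGFN1 and 67 and 54 against 178 and 152 for BGN, and the part that free RNA has in them was not tested. IGFN1 ranged from -5.15 without Control r2 to -1.97 without Control r1, where it did not pass (adjusted p = 0.0561), and was at -1.58 among G1 cells (adjusted p = 0.899). BGN did not pass without Control r2 (-1.17, adjusted p = 0.170).

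HTRA1 was at -1.56, SPP1 at -1.47 and RGS2 at -1.42, all lower in primed cells and not past the test in drug-susceptible cells. The RGS2 difference did not pass without Control r1 (-1.03, adjusted p = 0.0750). S100A2 was at 1.12 and CCN2 at 1.28, both on the higher side in primed cells, CCN2 without passing there. ID3 was at 1.17, COL9A3 at 1.34 and ID1 at 1.58. ID3 did not pass without Control r2 (0.67) or without TGFBRi r1 (0.29), ID1 not without Control r2 (1.34, adjusted p = 0.0805), and CCN2 not without Control r2 (1.23) or TGFBRi r1 (1.01) or among G1 cells (0.43). ID3, COL9A3 and ID1 fell in drug-susceptible cells and were less negative in primed cells, where ID1 was at 24.6 and 22.9 CPM in Control and 14.7 and 13.9 in TGFBRi. Over 6 alternatives each, HTRA1, SPP1, S100A2 and COL9A3 passed in all 6, RGS2 in 5, BGN and ID1 in 4, IGFN1 and ID3 in 3 and CCN2 in 2. The losses with DESeq2 were IGFN1, ID3, CCN2 and ID1, and those among G1 cells were IGFN1, BGN and CCN2. Differences for DDIT3 (-1.12, adjusted p = 2.83e-09), TRIB3 (-0.99, adjusted p = 4.55e-05), SLC7A11 (-1.35, adjusted p = 0.000133) and ATF3 (-2.08, adjusted p = 0.00167), all by edgeR, were named after their values were seen. In primed cells each of these genes was highest in Control r1. SLC7A11 was at 47.0 CPM there against 17.7 in Control r2 and 18.7 and 16.2 in TGFBRi. ATF3 was at 23.1 CPM against 10.5, 8.67 and 4.30 in the same order.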

How the results depend on the processing

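In primed cells 21 genes were lower and 2 higher. Without the replicate block, the pairing left out, these counts were 14 and 2, and all 14 lower genes were among the 21. Scaled to library totals they were 7 and 0, and with RLE scaling within edgeR 10 and 2. With no filter on low counts they were 1 and 0, and with DESeq2 5 and 0. In the most common cluster alone they were 6 and 1. With all groups of at least 20 cells in the fit they were 33 and 8, and with equal cell numbers 44 and 9. Leaving out 1 library also drops the block, since the block would leave no residual degrees of freedom, and the lone library of a group is assumed to vary like the pair of the other group. These fits thus change 2 choices at once, and they gave 17 to 35 lower and 3 to 18 higher genes. The extremes were 17 and 3 without Control r2, 35 and 8 without TGFBRi r2, 33 and 6 without Control r1, and 25 and 18 without TGFBRi r1. PMEPA1 passed under all 14 alternatives, and FN1, RGS2 and SPP1 under all but the one with no filter. For the difference between states, 18 higher and 43 lower genes became 7 and 13 among G1 cells and 3 and 5 with DESeq2, and, in fits added after the data were seen that leave out 1 library with the library block kept, 12 to 42 higher and 15 to 63 lower (12 and 15 without Control r1, 12 and 26 without TGFBRi r1, 42 and 63 without TGFBRi r2). Leaving out both libraries of a replicate leaves no residual degrees of freedom and was not run as a test.

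Of the genes past the threshold, 1 changed sign in an alternative: CCL5 ranged from -8.01 without TGFBRi r2, a fitted value against 0 UMIs and no bound, to 0.33 without Control r2. Named genes that had not passed also changed sign. TGFBR2 was at -0.13 without Control r1 and -0.0090 without TGFBRi r1, and up to 0.25 without Control r2. EGFR was at -0.086 without Control r2 and 0.29 without Control r1, -0.21 in G1 cells and -0.51 with equal cell numbers, and NGFR at -0.29 without TGFBRi r2 and 0.70 without TGFBRi r1. SOX10 was at -0.25 in G1 cells and -0.17 without high-UMI cells. MITF was at -0.063 without TGFBRi r1 and 0.15 without TGFBRi r2, -0.17 in G1 cells, -0.010 in the most common cluster and -0.042 with equal cell numbers. MLANA was at -0.063 without TGFBRi r1, 0.20 without TGFBRi r2 and -0.0066 in the most common cluster, and IL1B at -1.01 without TGFBRi r2 and 2.86 without Control r2. The cause of these changes was not tested. Primed sums hold few UMIs of scarce genes, and small changes of these were not detectable at this depth.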

Other observations

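Genes near the end of the short arm of chromosome 16 lay on the higher side in TGFBRi primed cells, a pattern noticed after the values were seen. Of the 27 tested genes that start in the first megabase, 23 had an estimate above 0, with a median log2 fold change of 0.21 (0.17 in r1 and 0.21 in r2), beside -0.0014 over all genes tested. Over all genes tested, 5138 of 10326 were above 0. In drug-susceptible cells 22 of the same 27 genes were above 0, with a median of 0.08. None of the 27 passed the threshold by edgeR in primed cells. The first genes in the row are POLR3K (start 46407, hg38), a subunit of RNA polymerase III, at 53.7 and 84.5 CPM in Control and 125 and 112 in TGFBRi, and SNRNP25 (start 53828), a component of the minor spliceosome, at 79.7 and 77.3 CPM in Control and 119 and 132 in TGFBRi. The difference from drug-susceptible cells was 0.74 (adjusted p = 0.000315) for POLR3K and 0.72 (adjusted p = 0.000383) for SNRNP25. No copy number was measured in these samples here.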
